A study of Mus musculus with 9 samples.

Results

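The 7 transcription factor genes Pax6, Sox3, Sox4, Sox11, Sox12, Sox13 and Sox21, all linked to the developing nervous system, were followed in mouse embryonic stem cells. They were taken by gene symbol and matched to the Ensembl IDs of the count tables, which gave 7 of the 37990 genes listed. All 7 passed the filter on low counts, as did 14465 genes in all. The cells were of the E14 line, grown on gelatin in serum with leukaemia inhibitory factor, which keeps them undifferentiated. Each culture carried a stable lentiviral pLKO.1 short hairpin and had been selected with puromycin, so the controls share both. In the Sin3a knockdown the hairpin targets Sin3a, which scaffolds a corepressor complex that holds histone deacetylases. In the other knockdown, of Fam60a, it targets Fam60a, a subunit of that complex annotated as Sinhcaf. The T2SC libraries were taken as the non-targeting controls because they are the ones whose titles name no target. There were 3 libraries per group, which the labels describe as biological replicates. A knockdown leaves part of the targeted transcript, and the labels name no second hairpin per gene.

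Sox proteins bind DNA through a high-mobility-group box and fall into subgroups by sequence. SoxB1 factors such as Sox2 and Sox3 maintain neural progenitors, whereas Sox21, of SoxB2, opposes them and favours differentiation. The SoxC factors Sox4, Sox11 and Sox12 act in newly formed neurons and many other embryonic cells, and Sox13 belongs to SoxD, whose members lack an activation domain of their own. Pax6 carries a paired domain and a homeodomain and is required for eye, forebrain and pancreas development. In embryonic stem cells Sox2 is a core pluripotency factor, while neural lineage genes are held at low levels.

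On GRCm38 in GENCODE M21, Pax6 (ENSMUSG00000027168) lies at chr2:105668900-105697364 on the plus strand in 16 exon blocks, and Sox13 (ENSMUSG00000070643) at chr1:133382303-133424377 on the minus strand in 14. The other 5 are single-exon genes on the minus strand. These are Sox3 (ENSMUSG00000045179) at chrX:60891366-60893430, Sox21 (ENSMUSG00000061517) at chr14:118233232-118237030, Sox4 (ENSMUSG00000076431) at chr13:28948919-28953713, Sox11 (ENSMUSG00000063632) at chr12:27334264-27342574 and Sox12 (ENSMUSG00000051817) at chr2:152393611-152398063. The sequences below are the windows from 250 bases before to 50 after the start site, from RefSeq on GRCm38.p6, for the members with a called difference and for Sox4, the remaining SoxC gene. Capitals mark matches, on either strand, to 6 motifs: CACGTG is an E-box, ATGCAAAT is the octamer bound by Pou factors, CCAAT is the CCAAT box, GGGCGG is the GC box, ACAAAG is a Sox motif and TATAAA is a TATA box.
Pax6, first start, chr2:105668646-105668945, plus strand: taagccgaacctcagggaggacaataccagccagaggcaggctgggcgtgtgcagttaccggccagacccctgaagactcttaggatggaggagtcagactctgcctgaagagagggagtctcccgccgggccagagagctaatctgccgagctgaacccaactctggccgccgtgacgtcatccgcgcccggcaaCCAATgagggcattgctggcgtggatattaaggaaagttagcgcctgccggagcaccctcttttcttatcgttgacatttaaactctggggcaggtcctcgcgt
Pax6, second start, chr2:105682213-105682512, plus strand: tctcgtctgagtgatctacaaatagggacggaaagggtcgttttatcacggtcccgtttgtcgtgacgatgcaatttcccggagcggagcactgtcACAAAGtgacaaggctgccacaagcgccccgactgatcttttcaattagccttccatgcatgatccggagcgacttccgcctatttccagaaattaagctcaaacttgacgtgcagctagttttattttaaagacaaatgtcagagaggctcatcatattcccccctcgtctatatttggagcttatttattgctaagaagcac
Sox12, chr2:152397997-152398296, minus strand: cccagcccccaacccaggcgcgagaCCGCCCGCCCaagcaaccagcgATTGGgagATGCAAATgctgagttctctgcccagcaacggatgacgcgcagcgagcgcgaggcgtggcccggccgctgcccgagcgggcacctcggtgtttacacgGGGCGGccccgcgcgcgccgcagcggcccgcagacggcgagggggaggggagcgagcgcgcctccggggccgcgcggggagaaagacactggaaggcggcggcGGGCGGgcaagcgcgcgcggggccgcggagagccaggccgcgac
Sox11, chr12:27342669-27342968, minus strand: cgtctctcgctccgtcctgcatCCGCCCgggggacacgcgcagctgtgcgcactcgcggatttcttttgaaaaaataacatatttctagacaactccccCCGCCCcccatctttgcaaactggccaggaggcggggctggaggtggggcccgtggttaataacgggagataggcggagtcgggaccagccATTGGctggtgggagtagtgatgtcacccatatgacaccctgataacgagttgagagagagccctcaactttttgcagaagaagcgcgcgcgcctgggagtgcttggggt
Sox4, chr13:28953650-28953949, minus strand: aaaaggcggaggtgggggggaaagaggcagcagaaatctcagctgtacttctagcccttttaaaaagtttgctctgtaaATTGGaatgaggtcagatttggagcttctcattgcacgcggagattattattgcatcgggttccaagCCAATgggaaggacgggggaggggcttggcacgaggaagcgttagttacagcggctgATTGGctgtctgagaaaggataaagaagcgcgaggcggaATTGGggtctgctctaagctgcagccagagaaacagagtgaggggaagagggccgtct

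Among 32851 promoter windows of that length, CACGTG occurred in 7.15%, ATGCAAAT in 1.74%, CCAAT in 37.4%, GGGCGG in 35.7%, ACAAAG in 18.7% and TATAAA in 13.6%. The window of Sox12 was the only one to hold the octamer among 7 windows read, of which 2 are of Pax6 and 1 each of the Sox genes other than Sox3. The octamer lies at position -195, beside a CCAAT box at -203. The Sox12 window also held 4 GC boxes, of which those at -225 and -221 overlap. The window of Sox4 held 4 CCAAT boxes, and that of Sox11 held 1 CCAAT box and 2 GC boxes. At Pax6, the first start had 1 CCAAT box and the second had 1 match to ACAAAG. The windows of Sox13 and Sox21 held 0 matches to these 6 motifs. A match is only an occurrence of the letters, and binding was not measured.

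Libraries held between 2607872 and 7674887 reads. The targeted transcripts were lower in their own knockdowns: Sin3a stood at 43.8% of its control level in the Sin3a knockdown (edgeR adjusted p = 0.00149) and Sinhcaf at 42.5% in the Fam60a knockdown (edgeR adjusted p = 0.028). Sin3a was at 75.6% of its control level in the Fam60a knockdown (edgeR adjusted p = 0.0964). Replicate 3 of the Sin3a knockdown stood apart. It had 2607872 reads, the fewest, and its GC-rich transcripts were high and its GC-poor ones low relative to replicates 1 and 2, so results that rest on it are given with and without it. The summed level of 8 embryonic stem cell markers was 1248 to 1434 CPM (counts relative to the TMM-scaled library size) in the Sin3a knockdown, 1116 to 1259 CPM in the Fam60a knockdown and 1326 to 1459 CPM in controls. The 8 neural progenitor markers measured, Pax6 among them, summed to 20.98 to 128 CPM in the Sin3a knockdown, with the highest value in replicate 3, to 35.2 to 54.1 CPM in the Fam60a knockdown and to 41.9 to 48.4 CPM in controls. Of the 4 of them tested, 1 was called in the Sin3a knockdown, Pax6 itself, beside 10.2% of all genes. Their log2 differences in the Sin3a knockdown ran from -2.74, that of Pax6, to 1.06, with a median of 0.19. Without replicate 3 of the Sin3a knockdown the median was -0.48, and 2 of 4 were called lower, beside 24.5% of all genes called in either direction. In the Fam60a knockdown they ran from -0.79 to 0.39, with a median of 0.07, and 0 were called, beside 2.92% of all genes. In the fit without replicate 3 of the Sin3a knockdown, 1 of 4 was called lower in the Fam60a knockdown, beside 16.9% of all genes. The sums of 8 trophectoderm markers were 126, 116 and 382 CPM in Sin3a knockdown replicates 1, 2 and 3. They were 158 to 234 CPM in the Fam60a knockdown and 94.8 to 187 CPM in controls. For 9 fibroblast markers the sums were 24.4, 22.1 and 56.9 CPM in Sin3a knockdown replicates 1, 2 and 3. These were 40.6 to 56.3 CPM in the Fam60a knockdown and 47.1 to 92.8 CPM in controls. The part of such cells in the results was not tested. Among the listed neural progenitor markers with few or no reads, Fabp7 had 0 reads in every library. That count allows at most 0.385 to 1.22 CPM in a library. Hes5 had 0, 0 and 7 reads over the Sin3a knockdown, Fam60a knockdown and control groups, and Neurog2 had 3, 0 and 0. The floors cover counting error only.

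Of the 7 genes Pax6 fell most in the Sin3a knockdown, and its 3 groups were ordered without overlap. It had 2.74, 2.41 and 1.62 CPM in the Sin3a knockdown, 8.01, 7.70 and 11.7 CPM in the Fam60a knockdown, and 16.3, 14.5 and 16.7 CPM in controls. Every Sin3a knockdown library lay below every Fam60a knockdown library, which in turn lay below every control. These values rest on 35 reads over the Sin3a knockdown, 187 over the Fam60a knockdown and 312 over the controls, so the Sin3a knockdown level is the least precise. In the Sin3a knockdown Pax6 fell to 14.3% of its control level, a log2 change of -2.74 ± 0.30 (SE; 95% interval -3.42 to -2.06; edgeR adjusted p = 0.00202). The libraries were bulk cultures, in which fewer cells of a type and less RNA per cell cannot be told apart. Pax6 had 18, 13 and 4 reads in Sin3a knockdown replicates 1, 2 and 3. Within same-numbered libraries the difference from controls was -2.44, -2.43 and -3.12 on the log2 scale. The fall of Pax6 in the Sin3a knockdown was called under 19 of 19 alternatives, with adjusted p between 5.22e-12 (DESeq2) and 0.0144 (edgeR without control replicate 1).

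In the Fam60a knockdown, Pax6 was at 57.8% of its control level, a log2 difference of -0.79 ± 0.26 (95% interval -1.39 to -0.20) that missed the threshold (edgeR adjusted p = 0.164). Its 3 libraries all lay below the 3 controls, with differences of -0.996, -0.881 and -0.500 by replicate number. With replicate 3 of the Sin3a knockdown left out of the common estimate of spread, the difference was -0.78 ± 0.22 and passed (edgeR adjusted p = 0.0376). Over 9 libraries it passed with DESeq2 (adjusted p = 0.0465). It also passed there with an offset for GC content and the replicate number as a block (edgeR adjusted p = 0.0492). Pax6 was called in the Fam60a knockdown in 4 of 19 alternatives. The knockdowns also differed from each other: Pax6 in the Sin3a knockdown was at 24.8% of its level in the Fam60a knockdown, a log2 difference of -1.95 ± 0.30 (edgeR adjusted p = 0.0157). It was still called without replicate 3 of the Sin3a knockdown, at -1.82 ± 0.29 (edgeR adjusted p = 0.00501). The call was lost without Fam60a knockdown replicate 1 or 2 (edgeR adjusted p = 0.057 and 0.0558), without Sin3a knockdown replicate 1 or 2 (edgeR adjusted p = 0.0552 and 0.0669) and in a fit of the 6 libraries compared (edgeR adjusted p = 0.0992).

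**Figure D1:**
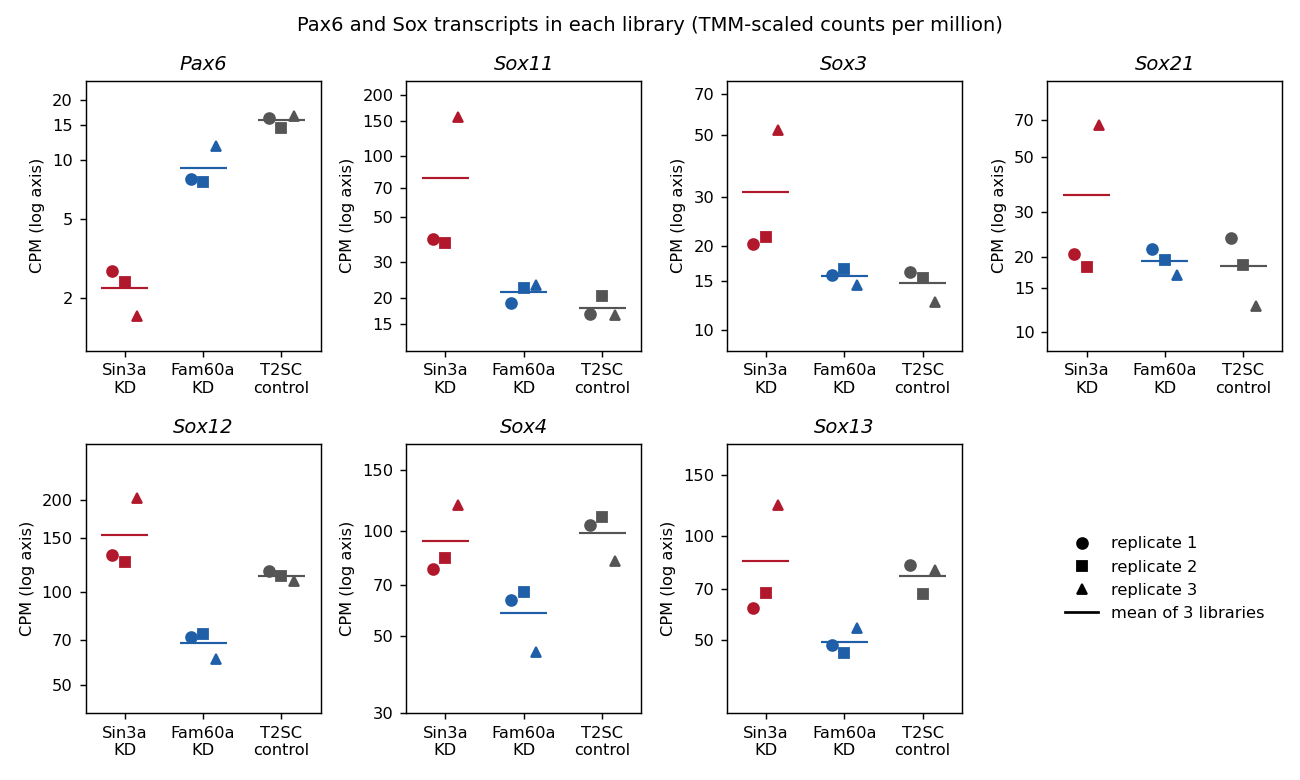
CPM (log axis) of Pax6 and the 6 Sox genes in the 9 libraries, with the Sin3a knockdown left, the Fam60a knockdown in the middle and the T2SC control right. Points are libraries, with a shape per replicate, and lines are means of 3. Pax6 steps up over the 3 groups, and replicate 3 of the Sin3a knockdown is the highest library for each of the 6 Sox genes, at 157 CPM for Sox11.

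Of the SoxC genes, Sox11 rose in the Sin3a knockdown and Sox12 differed between the knockdowns, while Sox4 was not called by edgeR over 9 libraries. Sox11 had 39.3, 37.5 and 157 CPM in the Sin3a knockdown, 18.9, 22.5 and 23.2 CPM in the Fam60a knockdown, and 16.8, 20.5 and 16.5 CPM in controls. All 3 Sin3a knockdown libraries lay above the other 6, and replicate 3 was far above replicates 1 and 2. The log2 change of Sox11 in the Sin3a knockdown was 2.09 ± 0.52 (95% interval 0.92 to 3.27; edgeR adjusted p = 0.0350). Without replicate 3 it was 1.10 ± 0.16 (edgeR adjusted p = 0.0017). The direction and the call did not depend on that library, but the size did. The call was lost in 8 of 19 alternatives, with limma-voom (adjusted p = 0.0717), in a fit of the 6 libraries compared (edgeR adjusted p = 0.107), and without each of the 6 Fam60a knockdown or control libraries in turn (edgeR adjusted p up to 0.124).

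Against the Fam60a knockdown, Sox11 in the Sin3a knockdown was higher by 1.83 ± 0.51 on the log2 scale, which missed the threshold (edgeR adjusted p = 0.0962). Without replicate 3 of the Sin3a knockdown the difference was 0.83 ± 0.15 and passed (edgeR adjusted p = 0.00998). In the Fam60a knockdown the difference of Sox11 from controls was 0.26 ± 0.51 (95% interval -0.89 to 1.41; edgeR adjusted p = 0.952), and the libraries overlapped.

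Sox12 had 133, 126 and 204 CPM in the Sin3a knockdown, 71.8, 73.1 and 60.6 CPM in the Fam60a knockdown, and 117, 113 and 109 CPM in controls. The Fam60a knockdown libraries lay below every control and the Sin3a knockdown libraries above every control. Between the knockdowns the log2 difference was 1.16 ± 0.19 (95% interval 0.74 to 1.59; edgeR adjusted p = 0.0183), so that Sox12 in the Sin3a knockdown was at 225% of its level in the Fam60a knockdown. Without replicate 3 of the Sin3a knockdown it was 0.91 ± 0.09 (edgeR adjusted p = 0.000833). The call was lost without Fam60a knockdown replicate 1, 2 or 3 (edgeR adjusted p = 0.0761, 0.0787 and 0.059) and in a fit of the 6 libraries compared (edgeR adjusted p = 0.114). Against controls, edgeR called Sox12 in neither knockdown over 9 libraries, with 0.44 ± 0.19 in the Sin3a knockdown (edgeR adjusted p = 0.176) and -0.72 ± 0.19 in the Fam60a knockdown (edgeR adjusted p = 0.0794). In the Fam60a knockdown it passed with DESeq2 (adjusted p = 0.0154) and limma-voom (adjusted p = 0.0453). Without replicate 3 of the Sin3a knockdown, the Fam60a knockdown difference was -0.71 ± 0.08 and passed (edgeR adjusted p = 0.00115), and that of the Sin3a knockdown was 0.19 ± 0.09 (edgeR adjusted p = 0.143). With an offset for GC content, Sox12 passed in both knockdowns, at 0.52 in the Sin3a knockdown (edgeR adjusted p = 0.0115) and -0.71 in the Fam60a knockdown (edgeR adjusted p = 0.00676).

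Sox4 had 77.6, 83.6 and 119 CPM in the Sin3a knockdown, 63.1, 66.6 and 44.7 CPM in the Fam60a knockdown, and 104, 110 and 82.1 CPM in controls. The Fam60a knockdown libraries lay below all others, and the Sin3a knockdown overlapped the controls. The difference from controls was -0.76 ± 0.22 in the Fam60a knockdown (edgeR adjusted p = 0.108; DESeq2 adjusted p = 0.0281), and -0.75 ± 0.16 without replicate 3 of the Sin3a knockdown (edgeR adjusted p = 0.0136). The Sin3a knockdown differed from controls by -0.09 ± 0.22 (95% interval -0.58 to 0.41; edgeR adjusted p = 0.832). Without replicate 3 of the Sin3a knockdown that difference was -0.29 ± 0.17 (edgeR adjusted p = 0.256). With the replicate number also added as a block, a combination chosen after seeing the data, it was -0.42 ± 0.06 and passed (edgeR adjusted p = 0.000246). GENCODE M21 places the lincRNA Gm26735 on the opposite strand with 2616 shared exon bases, and that lincRNA was not analysed here.

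Per length, Sox11 was the smallest part of the SoxC group in every library. It made up 9.33, 8.99 and 21.1% of the summed SoxC level (RPKM, which is CPM per kilobase of exon) in the Sin3a knockdown, a share of 7.20, 8.18 and 10.9% in the Fam60a knockdown, beside 4.03, 4.86 and 4.56% in controls. Both knockdowns lay above the controls in all libraries. A share also depends on the other SoxC genes. In the Fam60a knockdown Sox4 and Sox12 were at 59.0 and 60.5% of their control levels. Sox11 was there at 120% of its control level, with overlapping libraries. The shares were not tested, and an exact permutation test of 3 libraries against 3 cannot go below p = 0.10. The summed SoxC level was 50.7, 50.2 and 89.4 RPKM in the Sin3a knockdown, 31.6, 33.0 and 25.7 RPKM in the Fam60a knockdown, and 50.1, 50.8 and 43.6 RPKM in controls. The Fam60a knockdown had the lowest sum in all 3 libraries, and replicates 1 and 2 of the Sin3a knockdown had sums within the range of the controls.

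**Figure D2:**
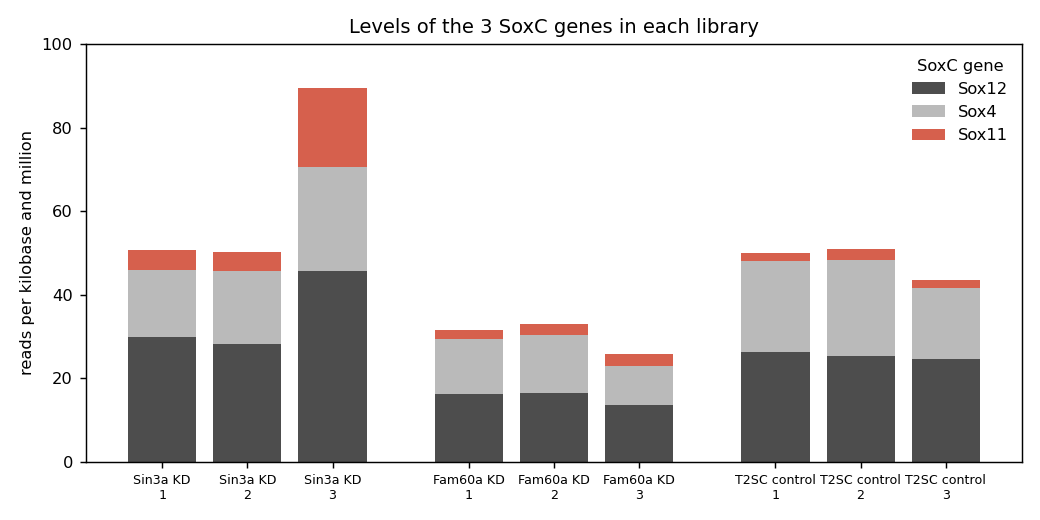
Stacked levels of Sox12, Sox4 and Sox11 in RPKM, one bar per library, with the Sin3a knockdown left, the Fam60a knockdown in the middle and the controls right. Sox11 takes 8.99 to 21.1% of the bars in the Sin3a knockdown and 4.03 to 4.86% in controls, and the Fam60a knockdown bars are the shortest.

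The SoxB genes were not called by edgeR over 9 libraries without a GC offset. Sox3 had 20.3, 21.5 and 52.0 CPM in the Sin3a knockdown, 15.7, 16.6 and 14.5 CPM in the Fam60a knockdown, and 16.1, 15.3 and 12.7 CPM in controls. The Sin3a knockdown libraries lay above the other 6. Its difference from controls was 1.06 ± 0.36 (95% interval 0.26 to 1.87; edgeR adjusted p = 0.0968) in the Sin3a knockdown, and 0.51 ± 0.17 (edgeR adjusted p = 0.0574) without replicate 3. It passed with an offset for GC content, at 0.87 (edgeR adjusted p = 0.0134), and with DESeq2, at 1.10 (adjusted p = 0.0286). Sox3 has an exon GC content of 66.4%, higher than that of 99.8% of tested genes with a value.

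Sox21 had 20.4, 18.2 and 66.6 CPM in the Sin3a knockdown, 21.4, 19.4 and 16.9 CPM in the Fam60a knockdown, and 23.8, 18.5 and 12.7 CPM in controls. Replicate 3 of the Sin3a knockdown was the only library that stood above the others. The difference from controls was 0.91 ± 0.48 (edgeR adjusted p = 0.277) in the Sin3a knockdown and 0.08 ± 0.25 (edgeR adjusted p = 0.840) without that library. The Fam60a knockdown differed from controls by 0.07 ± 0.48 (95% interval -1.01 to 1.15; edgeR adjusted p = 0.992). The lincRNA Gm4675 overlaps Sox21 on the opposite strand over 713 exon bases and had 47, 20 and 35 reads over the Sin3a knockdown, Fam60a knockdown and control groups. The kit marks strand, and the names of the deposited tables carry the mark s2, which is how featureCounts denotes counting of reverse-stranded reads.

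The SoxD gene Sox13 had 61.7, 68.3 and 123 CPM in the Sin3a knockdown, 48.2, 45.8 and 53.9 CPM in the Fam60a knockdown, and 82.3, 67.7 and 79.6 CPM in controls. All Fam60a knockdown libraries lay below all others, and the Sin3a knockdown overlapped the controls. The difference in the Fam60a knockdown was -0.63 ± 0.25 (95% interval -1.19 to -0.07; edgeR adjusted p = 0.246). It was -0.62 ± 0.10 without replicate 3 of the Sin3a knockdown (edgeR adjusted p = 0.00479). The Sin3a knockdown was at 0.13 ± 0.25 over 9 libraries and -0.23 ± 0.11 without replicate 3, neither of which passed (edgeR adjusted p = 0.771 and 0.172).

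Counted over the members, 2 of 7 were called in the Sin3a knockdown, Sox11 higher and Pax6 lower. Of all 14465 genes tested, 10.2% were called in this comparison, 3.91% higher and 6.28% lower. In the Fam60a knockdown 0 of 7 were called by edgeR, against 2.92% of all genes, 1.49% higher and 1.44% lower. At an unadjusted edgeR p under 0.05 there were 4 of 7, against 2273 of all 14465 genes. DESeq2 called 3 members there and limma-voom 1, against 8.18 and 5.21% of all genes. Between the knockdowns 2 of 7 were called, Sox12 higher and Pax6 lower in the Sin3a knockdown, against 3.06% of all genes, 0.878% higher and 2.18% lower. Leaving out replicate 3 of the Sin3a knockdown gave 2 called members in the Sin3a knockdown, 4 in the Fam60a knockdown (Sox4, Sox12, Sox13 and Pax6, all lower) and 3 between the knockdowns, against 24.5, 16.9 and 14.7% of all genes.

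With the replicate number as a block, 2, 0 and 2 members were called in the Sin3a knockdown, in the Fam60a knockdown and between them. The share of all genes was then 15, 6.13 and 4.65%. Leaving out replicate 3 of the Sin3a knockdown and adding the block gave 4, 4 and 5 members, against 47.3, 39.6 and 36.1% of all genes, a combination chosen after seeing the data. By levels alone, 3 members were higher in the Sin3a knockdown than in controls without overlap and 1 was lower, where 14.7 and 18.5% of all genes were. In the Fam60a knockdown 0 were higher and 4 lower without overlap, where 16.2 and 18.2% of all genes were. Between the knockdowns 5 were higher and 1 lower in the Sin3a knockdown, where 11.6 and 13.9% of all genes were. The knockdowns share their controls, so their values are not independent of each other.

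**Figure D3:**
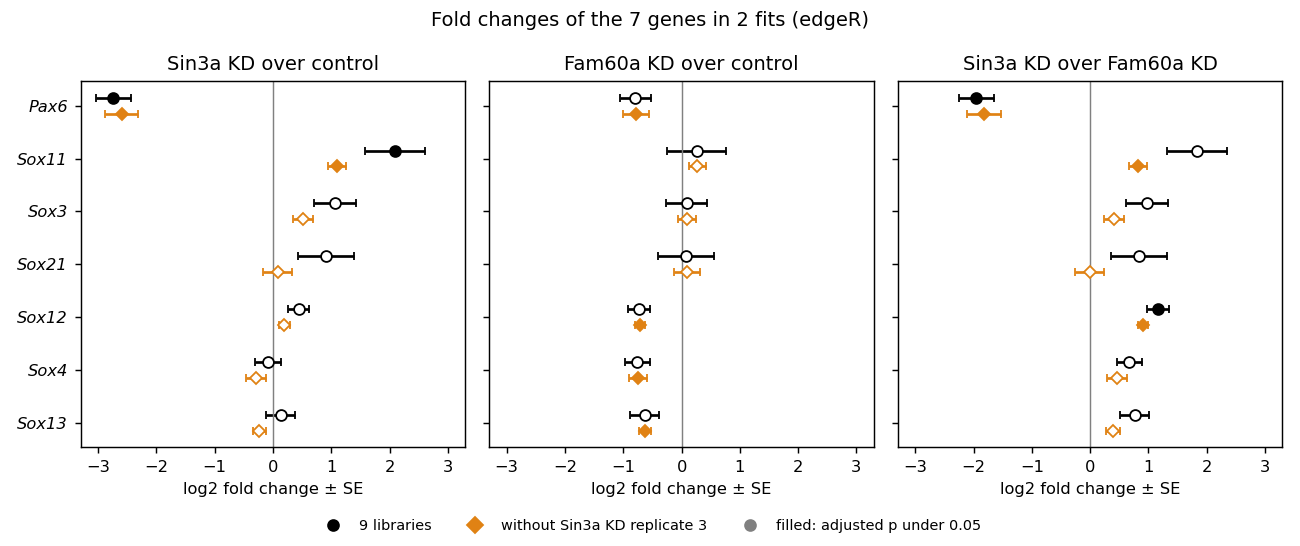
Log2 fold changes with SE for the 7 genes in 3 comparisons, from the fit of 9 libraries (black circles) and the fit without replicate 3 of the Sin3a knockdown (orange diamonds), with filled symbols at an adjusted p under 0.05. Pax6 in the Sin3a knockdown is at -2.74 and -2.60 in the 2 fits, while Sox11 is at 2.09 and 1.10.

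Replicate 3 of the Sin3a knockdown was read beside its GC content. Relative to the mean of replicates 1 and 2, Sox11 was higher in it by 2.02 on the log2 scale, whereas 1420 genes within 1 point of its GC content of 46.5% had a median of -0.37 and a 95th percentile of 0.91. Sox21 was higher by 1.77, against a median of 0.63 and a 95th percentile of 2.08 for 1068 genes of like GC content, so it lay within their spread. For Sox3 the value was 1.30 and the median 1.57, and for Sox12 the value was 0.65 and the median 0.75. Sox13, at 0.92, and Sox4, at 0.56, stood beside medians of 0.70 and 0.10. Pax6 was at -0.57 where the median was -0.12. The genes of like GC content numbered 30 for Sox3. Their 5th percentile for Sox11 was -1.94, so they spread on both sides of 0.

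**Figure D4:**
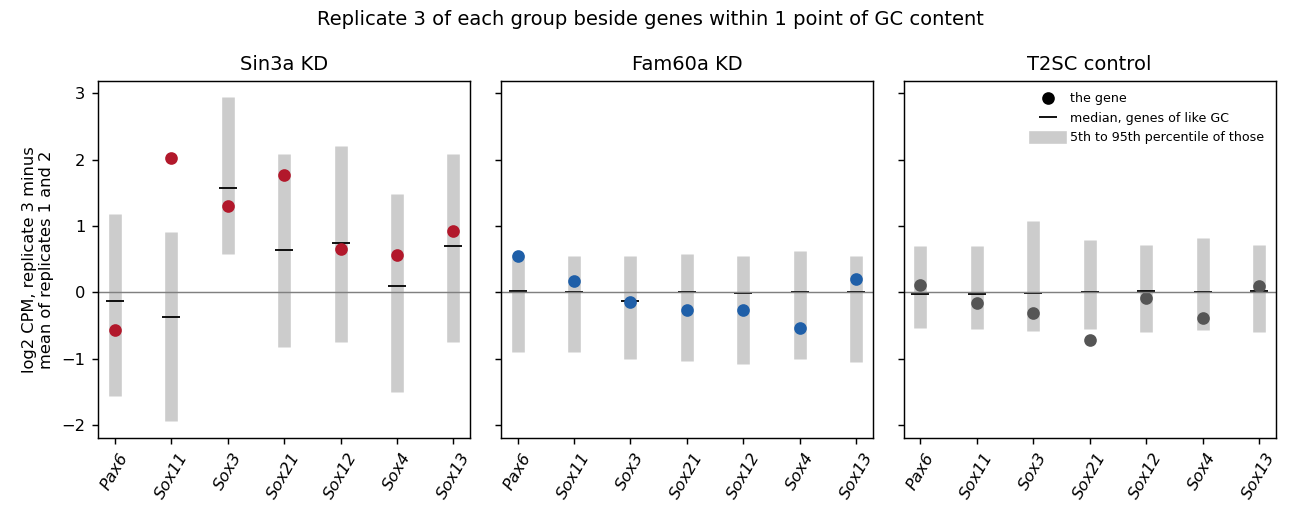
Log2 CPM of replicate 3 minus the mean of replicates 1 and 2 for each gene (points), in the Sin3a knockdown left, the Fam60a knockdown in the middle and the controls right. Black bars are the median and grey bars the 5th to 95th percentile of tested genes within 1 point of GC content; in the Sin3a knockdown Sox11, at 2.02, lies above the grey bar that ends at 0.91.

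Per length, Sox12 had the highest and Pax6 the lowest mean of the 7 genes in each group. In the Sin3a knockdown Sox12 averaged 34.6 ± 9.65 RPKM, followed by Sox13 at 19.6 ± 7.81, Sox4 at 19.5 ± 4.67, Sox3 at 15.1 ± 8.70, Sox11 at 9.37 ± 8.22, Sox21 at 9.23 ± 7.20 and Pax6 at 0.193 ± 0.0492 (SD, n = 3), and each neighbour overlapped the next except Sox21 and Pax6. In the Fam60a knockdown the order was Sox12 at 15.4 ± 1.55 RPKM, Sox4 at 12.1 ± 2.45, Sox13 at 11.4 ± 0.966, Sox3 at 7.56 ± 0.488, Sox21 at 5.07 ± 0.597, Sox11 at 2.59 ± 0.280 and Pax6 at 0.781 ± 0.190, where only the first 3 overlapped their neighbours. In controls it was Sox12 at 25.4 ± 0.943 RPKM, Sox4 at 20.6 ± 3.05, Sox13 at 17.7 ± 1.80, Sox3 at 7.12 ± 0.878, Sox21 at 4.82 ± 1.46, Sox11 at 2.16 ± 0.269 and Pax6 at 1.35 ± 0.102. Sox4 and Sox13 overlapped in controls, as did Sox3 and Sox21. Sox2, the pluripotency factor, was far above them at 98.2 ± 6.14 RPKM in the Sin3a knockdown, 89.5 ± 5.65 in the Fam60a knockdown and 105 ± 7.62 in controls.

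Of 19 listed Sox genes, 12 were tested. Called in the Sin3a knockdown were 1 higher (Sox11) and 1 lower (Sox18), while the Fam60a knockdown had 0 called in either direction (5 at an unadjusted p under 0.05). The shares of all genes called were 10.2 and 2.92%, and 2273 of 14465 genes had an unadjusted p under 0.05 in the Fam60a knockdown. Sox18, a SoxF factor of blood vessel development, had 2, 3 and 1 reads in the Sin3a knockdown, 11, 9 and 4 reads in the Fam60a knockdown, and 22, 17 and 19 reads in controls, a log2 change of -2.76 ± 0.49 in the Sin3a knockdown (edgeR adjusted p = 0.0103). Sox2 differed by -0.10 ± 0.10 in the Sin3a knockdown and -0.24 ± 0.10 in the Fam60a knockdown (edgeR adjusted p = 0.566 and 0.312). The median log2 difference of the 12 Sox genes was 0.56 in the Sin3a knockdown and -0.08 in the Fam60a knockdown, beside -0.01 and -0.02 for all genes tested. The medians without replicate 3 of the Sin3a knockdown were 0.08 and -0.23 over 13 tested Sox genes, with 1 higher and 1 lower in the Sin3a knockdown and 4 lower in the Fam60a knockdown. With the replicate number as a block, 3 Sox genes were higher and 1 lower in the Sin3a knockdown and 1 was higher in the Fam60a knockdown. The shares of all genes called were 24.5 and 16.9% without replicate 3, and 15 and 6.13% with the block.

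Sox7 and Sox17, the SoxF factors of primitive endoderm, were at 1.18 ± 0.50 and 1.55 ± 0.58 in the Sin3a knockdown without passing (edgeR adjusted p = 0.175 and 0.126). The summed level of 10 primitive endoderm markers, which include both, was 2358 to 4788 CPM in the Sin3a knockdown, 2006 to 3272 CPM in the Fam60a knockdown and 1013 to 2666 CPM in controls, and replicate 3 was the highest in each group. Of these 10 markers, 1 was called higher in the Sin3a knockdown and 0 in the Fam60a knockdown by edgeR (2 in the Fam60a knockdown at an unadjusted p under 0.05, and 1 with DESeq2). With the replicate number as a block, 7 were higher in the Sin3a knockdown and 3 in the Fam60a knockdown, and DESeq2 called 5 in the Sin3a knockdown. Of all genes in the Sin3a and Fam60a knockdowns, edgeR called 10.2 and 2.92%, DESeq2 17.4 and 8.18%, and the block 15 and 6.13%. In the Fam60a knockdown 2273 of 14465 genes had an unadjusted edgeR p under 0.05. The part of primitive endoderm cells in the values of the 7 genes was not tested either.

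Of 9 listed Pax genes, 4 were tested. Called were 1 higher (Pax1) and 2 lower (Pax6 and Pax8) in the Sin3a knockdown, and 1 higher (Pax1) and 0 lower in the Fam60a knockdown. Pax8, a thyroid and kidney regulator, had 4.42, 2.97 and 0.812 CPM in the Sin3a knockdown, 12.4, 10.7 and 13.1 CPM in the Fam60a knockdown, and 28.0, 20.4 and 17.9 CPM in controls. The 0.812 CPM of replicate 3 lay below 1.22 CPM, the level of 3 reads in that library. The groups of Pax8 were ordered as those of Pax6 were. Its change was -2.88 ± 0.43 in the Sin3a knockdown (edgeR adjusted p = 0.00577). The difference between the knockdowns was -2.01 ± 0.42 (edgeR adjusted p = 0.0428). Pax1, a regulator of the vertebral column, rose by 1.76 ± 0.40 in the Sin3a knockdown (edgeR adjusted p = 0.0266) and by 2.52 ± 0.40 in the Fam60a knockdown (edgeR adjusted p = 0.0156). The median of the 4 Pax genes was -0.60 in the Sin3a knockdown and 0.18 in the Fam60a knockdown. When replicate 3 of the Sin3a knockdown was left out, it was -0.89 and 0.19, with 1 higher and 2 lower in each knockdown. The shares of all genes called were then 24.5 and 16.9%, against 10.2 and 2.92% over 9 libraries.

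**Figure D5:**
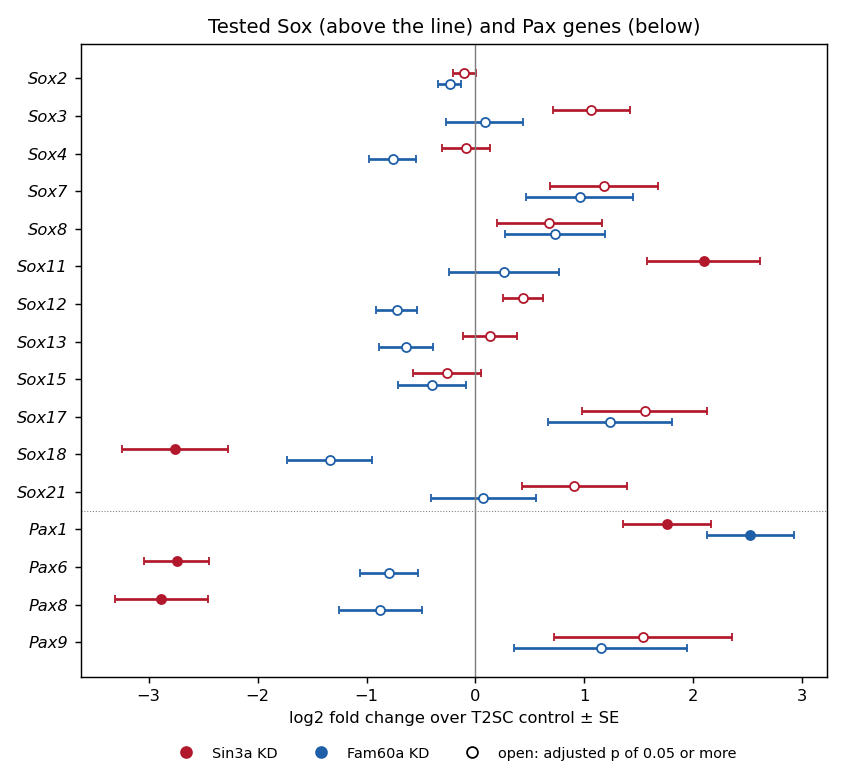
Log2 fold changes over the T2SC control with SE for the 12 tested Sox genes (above the dotted line) and 4 tested Pax genes (below), red for the Sin3a knockdown and blue for the Fam60a knockdown, filled where called. Pax6, at -2.74, Pax8, at -2.88, and Sox18, at -2.76, are the filled points left of 0, and Sox11 and Pax1 those right of it.

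The other neural lists are read beside the shares of all genes called, which were 3.91% higher and 6.28% lower in the Sin3a knockdown and 1.49% higher and 1.44% lower in the Fam60a knockdown. Of 23 tested regulators of the neural plate and forebrain, 1 was higher and 4 lower in the Sin3a knockdown, and 0 were higher and 4 lower in the Fam60a knockdown, with medians of -0.14 and -0.08. Zic2, a zinc finger factor of the neural plate, changed by -2.38 ± 0.23 on the log2 scale in the Sin3a knockdown and by -1.53 ± 0.21 in the Fam60a knockdown (edgeR adjusted p = 0.00147 and 0.0108). Ncan, which encodes the brain proteoglycan neurocan, changed by -2.88 ± 0.49 in the Sin3a knockdown and -3.74 ± 0.50 in the Fam60a knockdown (edgeR adjusted p = 0.00927 and 0.0106). Zic5 fell in the Sin3a knockdown, with a change of -1.69 ± 0.39 (edgeR adjusted p = 0.0266), and Gbx2, a factor of the midbrain and hindbrain border, rose by 0.50 ± 0.13 (edgeR adjusted p = 0.0444). Sall3, a zinc finger factor, fell in the Fam60a knockdown, with a change of -1.02 ± 0.20 (edgeR adjusted p = 0.0346). When replicate 3 of the Sin3a knockdown was left out, 3 were higher and 7 lower in the Sin3a knockdown and 1 higher and 7 lower in the Fam60a knockdown, beside 24.5 and 16.9% of all genes called in either direction.

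Of 21 tested neurogenic and neuronal genes, 4 were lower in the Sin3a knockdown and 3 in the Fam60a knockdown, and 0 were higher in either. Elavl3, a neuronal RNA-binding protein, changed by -2.48 ± 0.24 in the Sin3a knockdown and by -2.05 ± 0.23 in the Fam60a knockdown (edgeR adjusted p = 0.00168 and 0.00793). Tubb3, the neuronal beta tubulin, changed by -1.61 ± 0.22 in the Sin3a knockdown and -1.43 ± 0.21 in the Fam60a knockdown (edgeR adjusted p = 0.00399 and 0.0128). Crmp1, a protein of growth cones, changed by -1.23 ± 0.16 in the Sin3a knockdown and -1.43 ± 0.16 in the Fam60a knockdown (edgeR adjusted p = 0.00337 and 0.00793). The medians of the list were -0.13 in the Sin3a knockdown and -0.41 in the Fam60a knockdown. The replicate block gave 1 higher and 4 lower in each, beside 15 and 6.13% of all genes called in either direction. Over the 22 genes tested without replicate 3 of the Sin3a knockdown, 6 were lower and 0 higher in the Sin3a knockdown. In the Fam60a knockdown 8 were lower and 1 higher. The shares of all genes called in either direction were then 24.5 and 16.9%.

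Of 21 pluripotency factors and Sox2 partners, 4 were lower in the Sin3a knockdown and 3 in the Fam60a knockdown, and 0 were higher in either. The medians were -0.23 and -0.11. Of all genes tested, 6.28 and 1.44% were called lower. Lefty1, an inhibitor of Nodal signalling, changed by -5.27 ± 0.37 in the Sin3a knockdown and by -2.32 ± 0.29 in the Fam60a knockdown (edgeR adjusted p = 0.00074 and 0.0106). Tcf7l1, a repressor in the Wnt pathway, changed by -0.50 ± 0.11 in the Sin3a knockdown and -0.67 ± 0.11 in the Fam60a knockdown (edgeR adjusted p = 0.0235 and 0.0172). Klf2 changed by -0.77 ± 0.14 in the Sin3a knockdown (edgeR adjusted p = 0.0106) and Prdm14 by -1.49 ± 0.28 in the Fam60a knockdown (edgeR adjusted p = 0.0291). The counts became 5 lower and 1 higher in the Sin3a knockdown, and 7 lower and 0 higher in the Fam60a knockdown, when replicate 3 of the Sin3a knockdown was left out. The shares of all genes called in either direction were then 24.5 and 16.9%.

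Genes next to the members were read for comparison. Nrsn2, 16973 bases from Sox12, encodes a neuronal membrane protein and fell in both knockdowns. It averaged 2.31 ± 0.285 CPM in the Sin3a knockdown, 0.944 ± 0.553 CPM in the Fam60a knockdown and 6.95 ± 0.8 CPM in controls (SD, n = 3), with changes of -1.57 ± 0.40 and -2.84 ± 0.42 (edgeR adjusted p = 0.038 and 0.0122). Zcchc3, on the other side of Sox12, was called in neither. Etnk2, an ethanolamine kinase gene 1967 bases from Sox13 and on the opposite strand, rose in the Sin3a knockdown by 0.76 ± 0.17 (edgeR adjusted p = 0.0257), where Sox13 was not called. Elp4 and Rcn1, on either side of Pax6, were called in neither knockdown, at -0.04 ± 0.20 and 0.43 ± 0.19 in the Sin3a knockdown (edgeR adjusted p = 0.914 and 0.180). The antisense gene Pax6os1 had 0 reads in all 9 libraries.

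The genes with the most similar pattern were found by Pearson correlation of log2 CPM over the 9 libraries, which share groups, replicate numbers and the GC shift of 1 library. Pax6 was most like Zmat4 (r = 0.994), Pgc (r = 0.993) and Lefty2 (r = 0.985). Lefty2 averaged 1.49 ± 0.606 CPM in the Sin3a knockdown, 26.5 ± 8.77 CPM in the Fam60a knockdown and 86.2 ± 16.8 CPM in controls (SD, n = 3). That is the order of Pax6, by whose pattern Lefty2 was picked. Sox11 was most like Lmbr1l, Spire2 and Gadd45a, with r of 0.984 to 0.993. Sox12 was most like Spata13, Tril and Wdr73, with r of 0.983 to 0.988, and Sox4 was most like Pigs, Slain1 and Brd3, with r of 0.974 to 0.978. For Sox3 they were Bsdc1, Cdkn2b and Bicdl1, for Sox13 Jade1, Mcl1 and Zfp90, and for Sox21 Trmt10b, Gcc1 and Carnmt1.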

How the data were processed

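The authors deposited 1 table of raw counts per library, whole numbers of reads per Ensembl gene. Per the submitters' processing notes, the tools were STAR 2.4.0j, Picard and featureCounts from the Subread package, and per the file headers duplicates had been removed. The build and annotation used for counting are not given in the sources used here. TruSeq stranded libraries were read as single ends of 50 bases, per the labels. GENCODE M21 (GRCm38) gave positions, symbols, exon lengths and GC content and matched 32937 of 37990 genes, and 0 columns were left unused. In R 4.3.3, edgeR 4.0.16 (filterByExpr, TMM, robust quasi-likelihood F-test, 9 libraries in 1 model of 3 groups) gave each adjusted p (Benjamini-Hochberg over 14465 genes, called under 0.05) unless limma-voom (limma 3.58.1) or DESeq2 1.42.0 is named. CPM are TMM-scaled; log2 CPM used a prior count of 2. The fit recovered known changes in simulated data with independent libraries. Those data held no GC shift and no pairing by replicate number, so the simulation does not bear on calls that depend on these.

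The members, gene lists and tests were chosen with earlier results of these data known. Named genes are the members, the targeted genes, Sox2, up to 3 called genes per list and direction with the smallest adjusted p, the nearest protein-coding genes on each side, overlapping genes and the 3 most correlated genes. Same-numbered libraries of different groups deviated together from their group means (r of 0.178 to 0.622 across genes in 9 of 9 pairs), so the model was also run with that number as a block. Between different numbers r was -0.448 to 0.113. The deviations of a group sum to 0 for each gene, so these ranges of r depend on each other. The list entries Sox1 and Pou3f2 were not analysed here. A gene that the rule names is not reported here.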

Additional observations from a re-analysis of the deposited data

Results flagged for a closer look

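Sox12 and Pax6 differed between the knockdowns in a direct test of that difference. Sox12 was higher in the Sin3a knockdown than in the Fam60a knockdown by 1.16 ± 0.19 on the log2 scale (edgeR adjusted p = 0.0183), with all 3 Sin3a knockdown libraries above all 3 Fam60a knockdown libraries. Pax6 was lower in the Sin3a knockdown, with a log2 difference of -1.95 ± 0.30 (edgeR adjusted p = 0.0157), with all 3 Sin3a knockdown libraries below all 3 Fam60a knockdown libraries. Both were called without replicate 3 of the Sin3a knockdown, and over all alternatives Sox12 was called in 15 of 19 and Pax6 in 14 of 19. Replicate 3 of the Sin3a knockdown was not tested as an outlying library, with only 3 libraries in its group.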

How the results depend on the processing

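Counts of called members and genes are given for the Sin3a knockdown, the Fam60a knockdown and between the knockdowns. Over 9 libraries 2, 0 and 2 members and 1475, 423 and 443 genes were called. Another scaling or filter on low counts kept every count within 1.5 times. DESeq2 called 3 members in the Fam60a knockdown, 4 between the knockdowns, and 2507, 1181 and 1332 genes. Limma-voom called 1 and 1 members against controls, and 753 genes in the Fam60a knockdown. A GC offset called 4, 2 and 4 members and 2569, 789 and 1075 genes, and with the replicate block 4, 3 and 4 members and 3995, 1803 and 2065 genes. Fits of the 6 libraries compared called 1, 3 and 0 members and 739, 1827 and 0 genes. The replicate block alone called 887 genes in the Fam60a knockdown and 672 between the knockdowns, and changed no member's call. Without replicate 3 of the Sin3a knockdown and with the block, which was added after seeing the data, 4, 4 and 5 members and 6975, 5842 and 5321 genes were called. Leaving out 1 library at a time gave 1 to 2, 0 to 4 and 0 to 3 members, and 521 to 3606, 11 to 2495 and 48 to 2166 genes. The highest gene counts came without replicate 3 of the Sin3a knockdown. The cause of these shifts was not tested.

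Directions that turned were all of uncalled values. Sox4 in the Sin3a knockdown was at 0.0084 with the GC offset, 0.016 with offset and block, and -0.29 to 0.041 with 1 library left out. Without Sin3a knockdown replicate 3 and with the block, Sox4 in the Sin3a knockdown was lower, at -0.42, and called (edgeR adjusted p = 0.000246). Sox13 in the Sin3a knockdown was at -0.027 with limma-voom and -0.23 to 0.32 with 1 library left out (lowest without Sin3a knockdown replicate 3). It was at -0.18 with the block added to the fit without that library. Sox21 ranged from -0.11 to 0.33 in the Fam60a knockdown and from -0.0038 to 1.19 between the knockdowns with 1 library left out. Without Sin3a knockdown replicate 3 and with the block it was at -0.16 between the knockdowns and -0.054 in the Sin3a knockdown. Depth limits Pax6 most, with 35 reads over the Sin3a knockdown.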
